A study of Mus musculus with 9 samples.

Results

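A group of 7 miRNAs that are often used to normalise miRNA assays, or that belong to panels of miRNAs with steady levels, was followed across the fat depots. They are miR-191-5p, miR-425-5p, miR-186-5p, miR-361-5p, miR-423-3p, miR-423-5p and miR-320-3p. They were taken by name, and all 7 were found among the 1251 miRNAs of the table. All 7 had a value above the lowest in every library, and they were among the 343 miRNAs tested, for which 3 or more of the 9 libraries had to exceed the table's lowest value.

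The samples were BAT, SAT and VAT of C57BL/6J male mice, with 3 small RNA libraries per depot. BAT was the interscapular brown fat, SAT the inguinal subcutaneous white fat and VAT the epididymal visceral white fat. All mice had been fed a high-fat diet (HFD) with 45% of energy from fat for 11 weeks, after a period of acclimation that began at an age of 5 to 6 weeks, and no group on a low-fat diet was sequenced in these libraries, so that every depot compared here came from mice on the HFD. The libraries are called by depot and number as in their labels, namely BAT 12, 15 and 20, SAT 14, 19 and 20, and VAT 14, 17 and 20. The labels do not say that a number stands for a mouse, and the p-values measure the spread between these libraries.

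A miRNA is cut from an RNA hairpin, and either arm of the hairpin can give a mature strand, named 5p or 3p. The mature strand pairs with messenger RNAs mainly through its seed, bases 2 to 8, and represses them. A qPCR assay for a miRNA is read relative to a reference RNA that is assumed to have the same level in every sample, so a change in the reference passes into every value that is divided by it. The study normalised its own qPCR to miR-191-5p because its level was alike in the depots in these libraries. The closeness of miR-191-5p between VAT and BAT is therefore the value it was chosen for, and is given here as a description. miR-191-5p and miR-425-5p come from a shared cluster, and miR-423-3p and miR-423-5p are the arms of 1 hairpin.

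The mature sequences are printed to show that these miRNAs are unrelated in their seeds and differ in base composition. Those of 6 of the 7 were matched by name in the RefSeq table used here (GRCm38.p6), and they are written 5′ to 3′ with the seed in capitals.
miR-191-5p: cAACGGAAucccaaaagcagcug
miR-425-5p: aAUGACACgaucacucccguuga
miR-186-5p: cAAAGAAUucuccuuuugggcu
miR-361-5p: uUAUCAGAaucuccagggguac
miR-423-3p: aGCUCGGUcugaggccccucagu
miR-423-5p: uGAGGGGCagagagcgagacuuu

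No seed was shared among these 6, nor with any other of the 288 tested miRNAs that matched a sequence by name. On GRCm38, miR-191-5p lay at chr9:108568325-108568347 and miR-425-5p at chr9:108568789-108568811, both on the plus strand. Their hairpins were 384 bases apart in an exon of the long non-coding RNA gene 4833445I07Rik. miR-423-3p at chr11:77078086-77078108 and miR-423-5p at chr11:77078122-77078144 lay on the minus strand in an intron of Nsrp1. miR-186-5p was at chr3:157544285-157544306 on the plus strand in an intron of Zranb2, and miR-361-5p at chrX:113074867-113074888 on the minus strand in an intron of Chm. The share of G and C was 40.9% in miR-186-5p, 45.5% in miR-361-5p, 47.8% in miR-425-5p, 52.2% in miR-191-5p, 56.5% in miR-423-5p and 65.2% in miR-423-3p.

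All values are log2 values as the authors deposited them, so a difference of 1 is a 2-fold difference. The lowest value in the table was 3.32 and the highest 18.67. The libraries held nearly the same set of values, differing by less than 0.05 at 80 of the 100 highest ranks, so a value largely stands for the rank of a miRNA in its library. Read counts were not given, and the depth of each library is unknown. The brown fat miRNA miR-193b-3p was at 13.56 to 15.16 in BAT and at 10.43 to 11.29 in the other libraries, the other 3 brown fat miRNAs of the list did not pass in either comparison with BAT, and miR-196a-5p of white fat was above the lowest value in all SAT and VAT libraries and in none of BAT, but only at 3.96 in VAT 14. Of the other white fat miRNAs, miR-10b-5p was called higher in both white depots than in BAT (limma, adjusted p under 0.05, as below), whereas miR-196b-5p was at 7.55 in BAT 20 and at the lowest value in VAT 14 and was called higher only in SAT. Markers of other cells also varied. The summed level of the 4 muscle miRNAs was 10.09 to 18.68 in BAT, 9.84 to 10.78 in SAT and 9.84 to 17.21 in VAT, with the highest values in BAT 20, BAT 15 and VAT 20, and miR-1a-3p was above the lowest value only in BAT 20 and VAT 20. The sum of the 3 red cell miRNAs was 17.68 in each BAT library and 14.86 to 15.87 in SAT and VAT; it came almost wholly from miR-486-5p, while miR-451a was at 8.82 to 9.71 in BAT and 9.93 to 11.81 elsewhere, and miR-144-3p was at the lowest value throughout. The 5 leukocyte miRNAs summed to 14.31 to 14.75 in BAT, 13.66 to 16.77 in SAT and 12.89 to 14.28 in VAT, with miR-155-5p at the lowest value throughout. This sum came mostly from miR-150-5p, which was lower in VAT than in BAT, while the other 3 tested (miR-223-3p, miR-142-5p and miR-142-3p) were called higher in VAT, by 6.76, 4.01 and 1.16 on the log2 scale, and miR-223-3p was at the lowest value in BAT throughout. The 5 epithelial miRNAs were at the lowest value in BAT, and their sum was highest in SAT 14 (14.34, all 5 above the lowest value) and VAT 20 (10.10, 4 above it). Both endothelial miRNAs were called higher in the white depots, miR-126-3p by 1.98 in VAT and 1.96 in SAT and miR-126-5p by 1.10 and 0.73. The part of these cells in the results below was not tested, and in bulk tissue fewer cells of a type cannot be told apart from less RNA per cell.

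The candidates spanned a wide range of levels. Levels of different miRNAs in a small RNA library also depend on how well each is captured, so the order below is that of the deposited values. miR-191-5p was the highest of them in each depot and among the most abundant miRNAs of the libraries, at ranks 8 to 13. miR-361-5p was the lowest in each depot, at ranks 139 to 200. The order between them changed with the depot. In BAT it ran miR-191-5p, miR-423-5p, miR-423-3p, miR-320-3p, miR-186-5p, miR-425-5p and miR-361-5p, and the libraries of miR-423-5p and miR-423-3p overlapped. In SAT, miR-423-3p stood above miR-423-5p and miR-186-5p above miR-320-3p, but the libraries of both pairs overlapped. In VAT, miR-186-5p was second, followed by miR-423-3p, miR-423-5p and miR-320-3p, of which the last pair overlapped.

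**Figure D1:**
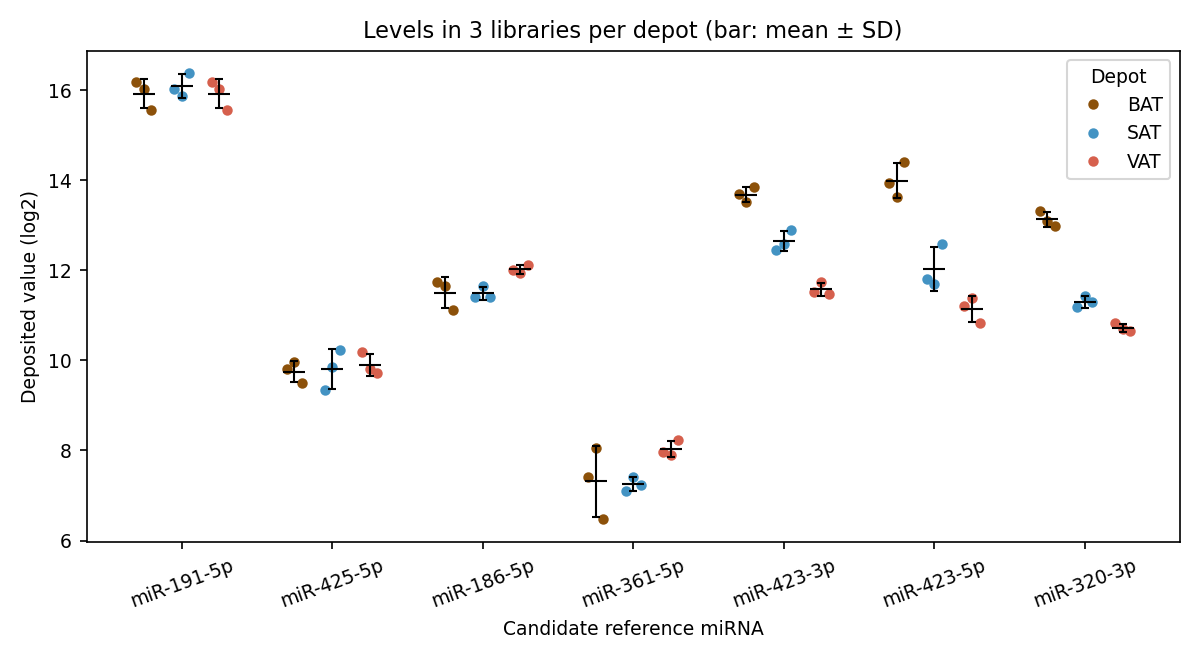
Deposited log2 value (vertical axis) of the 7 candidates (horizontal axis) in each library, coloured by depot, with black bars for the depot mean ± SD over 3 libraries. miR-191-5p and miR-425-5p stayed at the same height across the depots, while miR-423-3p, miR-423-5p and miR-320-3p stepped down from BAT to SAT to VAT.

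miR-191-5p and miR-425-5p were the candidates with the flattest levels. miR-191-5p was at 16.18, 16.02 and 15.56 in BAT 12, 15 and 20, at 16.02, 15.87 and 16.38 in SAT 14, 19 and 20, and at 16.18, 16.02 and 15.56 in VAT 14, 17 and 20. The 3 values of BAT and VAT were the same because the miRNA held ranks 9, 10 and 13 in both depots and a rank carries nearly the same value in every library. BAT and VAT overlapped in full and SAT overlapped both in part. The means were 15.92 ± 0.32 in BAT, 16.09 ± 0.26 in SAT and 15.92 ± 0.32 in VAT (SD, n = 3 each). miR-425-5p, from the same cluster, was at 9.80, 9.97 and 9.49 in BAT, at 9.35, 9.85 and 10.23 in SAT, and at 10.18, 9.80 and 9.71 in VAT. Its depots overlapped as well, with means of 9.76 ± 0.25, 9.81 ± 0.44 and 9.90 ± 0.25 (SD, n = 3 each).

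miR-186-5p and miR-361-5p, both from introns, had their highest means in VAT, and only the difference from SAT passed the test given below. miR-186-5p was at 11.75, 11.65 and 11.12 in BAT, at 11.41, 11.65 and 11.41 in SAT, and at 12, 11.94 and 12.12 in VAT, so that every VAT library lay above the other 6. miR-361-5p was at 7.42, 8.05 and 6.47 in BAT, at 7.11, 7.41 and 7.24 in SAT, and at 7.96, 7.91 and 8.23 in VAT. Its VAT libraries lay above those of SAT, but BAT reached from below all SAT libraries to above some of VAT. BAT 20 and BAT 15 lay further apart than any SAT and VAT libraries.

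Both arms of miR-423 and miR-320-3p were highest in BAT and lowest in VAT. miR-320-3p is known for a hairpin that bypasses the nuclear cut by Drosha. It was at 13.32, 13.09 and 12.98 in BAT, at 11.18, 11.44 and 11.29 in SAT, and at 10.82, 10.70 and 10.65 in VAT, and no depots overlapped. miR-423-3p was at 13.69, 13.51 and 13.84 in BAT, at 12.45, 12.59 and 12.89 in SAT, and at 11.51, 11.75 and 11.48 in VAT, again without overlap. miR-423-5p was at 13.94, 13.63 and 14.41 in BAT, at 11.81, 11.70 and 12.59 in SAT, and at 11.21, 11.38 and 10.82 in VAT, and here too each depot stood apart from the others.

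BAT 20 stood at an end of its group for all 7. It was the lowest BAT library for miR-191-5p, miR-425-5p, miR-186-5p, miR-361-5p and miR-320-3p, and the highest for both arms of miR-423. VAT 20 was the lowest VAT library for 5 of the 7 and the highest for miR-186-5p and miR-361-5p. BAT 20 and VAT 20 were also libraries with high muscle miRNAs. BAT 15 had the same muscle sum as VAT 20 (17.21). It was the highest BAT library for miR-425-5p and miR-361-5p and the lowest for both arms of miR-423. The part of muscle in these values was not tested. With BAT 20 and VAT 20 left out, the VAT/BAT differences were 0.00 for miR-191-5p, 0.10 for miR-425-5p, 0.27 for miR-186-5p, 0.20 for miR-361-5p, -1.97 for miR-423-3p, -2.49 for miR-423-5p and -2.44 for miR-320-3p, and the same 3 passed the threshold.

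The VAT/BAT comparison asked how unequal the candidates were between visceral and brown fat. In VAT, 3 of the 7 candidates fell and none rose, and 4 did not pass the test. A miRNA was called at an adjusted p under 0.05 in limma's moderated test (two-sided, Benjamini-Hochberg over the 343 tested miRNAs), which called 227 of the tested miRNAs, or 66.2%. The calls over all tested miRNAs were 135 higher in VAT (39.4%) and 92 lower (26.8%). miR-423-5p was 7.23-fold lower in VAT, with a log2 difference of -2.85 (SE 0.30, limma, adjusted p = 0.000433). miR-320-3p was 5.29-fold lower, with a difference of -2.40 (SE 0.21, limma, adjusted p = 0.000287). miR-423-3p was 4.28-fold lower, with a difference of -2.10 (SE 0.22, limma, adjusted p = 0.000434).

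For the other 4, the intervals show how large a difference the data leave room for. miR-191-5p differed by 0.00 with a 95% interval from limma of -0.69 to 0.69, and miR-425-5p by 0.14 with an interval of -0.47 to 0.75. Both intervals lay within 1 on the log2 scale, that is, within a 2-fold difference, which held for 25 of the tested miRNAs, or 7.29%. miR-186-5p was 0.51 higher in VAT (interval -0.10 to 1.13, limma, adjusted p = 0.117), although its 3 VAT libraries lay above all 3 of BAT. miR-361-5p was 0.72 higher with the widest interval of the 4, -0.31 to 1.75 (limma, adjusted p = 0.174). Without BAT 15 the difference was 1.09 and passed the threshold (limma, adjusted p = 0.0471). Scaling to candidates aside, it passed in only 1 of 17 alternative runs, where the difference ranged from 0.20 to 1.09. The libraries of VAT and BAT did not overlap for 4 of the 7 candidates, beside 72.0% of all tested miRNAs. The median absolute difference was 0.72 over the candidates and 1.62 over all tested miRNAs.

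The SAT/BAT comparison set subcutaneous against brown fat. In SAT the same 3 candidates fell, by less than in VAT, and the other 4 did not pass the test. This comparison shares its BAT libraries with the VAT/BAT comparison, so the values are set side by side and not counted as a second line of evidence. Over all tested miRNAs 139 were called, or 40.5%, with 77 higher (22.4%) and 62 lower (18.1%) in SAT. miR-423-5p was 3.90-fold lower in SAT with a log2 difference of -1.96 (SE 0.34, limma, adjusted p = 0.00971). miR-320-3p was 3.55-fold lower with a difference of -1.83 (SE 0.13, limma, adjusted p = 0.000602). miR-423-3p was 2.05-fold lower with a difference of -1.03 (SE 0.16, limma, adjusted p = 0.00753).

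The other candidates differed between SAT and BAT by at most 0.17 on the log2 scale. miR-186-5p differed by -0.01 (95% interval -0.55 to 0.52), miR-425-5p by 0.05 (-0.67 to 0.78) and miR-191-5p by 0.17 (-0.43 to 0.77), all within 1 on the log2 scale, as for 40 of the tested miRNAs (11.7%). miR-361-5p differed by -0.06, and its interval of -1.19 to 1.07 ran past a 2-fold difference in both directions. SAT and BAT did not overlap for 3 of the 7, beside 52.5% of all tested miRNAs.

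The VAT/SAT comparison set the white depots against each other. Here 2 candidates rose in VAT, miR-186-5p and miR-361-5p, which neither comparison with BAT had called, and 2 fell, miR-423-3p and miR-320-3p. The median absolute difference of the candidates was 0.58, beside 0.55 over all tested miRNAs. limma called 55 of the tested miRNAs, or 16.0%, with 29 higher in VAT (8.45%) and 26 lower (7.58%), and 4 of the 7 candidates, 2 in each direction. miR-361-5p was 1.72-fold higher in VAT with a log2 difference of 0.78 (SE 0.14, limma, adjusted p = 0.0290), and miR-186-5p 1.44-fold higher with a difference of 0.53 (SE 0.11, limma, adjusted p = 0.0401). miR-423-3p was 2.09-fold lower with a difference of -1.06 (SE 0.16, limma, adjusted p = 0.0235), and miR-320-3p 1.49-fold lower with a difference of -0.58 (SE 0.11, limma, adjusted p = 0.0307). miR-423-5p was 0.89 lower and its libraries did not overlap, but it missed the threshold (interval -1.67 to -0.12, limma, adjusted p = 0.109).

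These 4 calls depended on single libraries and on the processing. Without SAT 19, SAT 20, VAT 14 or VAT 20 none of the candidates was called between VAT and SAT, and without SAT 14 or VAT 17 there were 2. The direction of each of the 4 held in every case. Scaling to a single candidate aside, there were 18 alternative runs for VAT/SAT, these included. The call was lost in 15 of them for miR-186-5p, 11 for miR-320-3p, 10 for miR-361-5p and 6 for miR-423-3p. miR-191-5p differed by -0.17 (95% interval -0.76 to 0.41) and miR-425-5p by 0.09 (-0.61 to 0.79). With miR-186-5p (0.24 to 0.82) and miR-320-3p (-0.86 to -0.29), 4 candidates had an interval within 1 on the log2 scale, as did 106 of the tested miRNAs (30.9%). VAT and SAT did not overlap for 5 of the 7, beside 39.4% of all tested miRNAs.

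**Figure D2:**
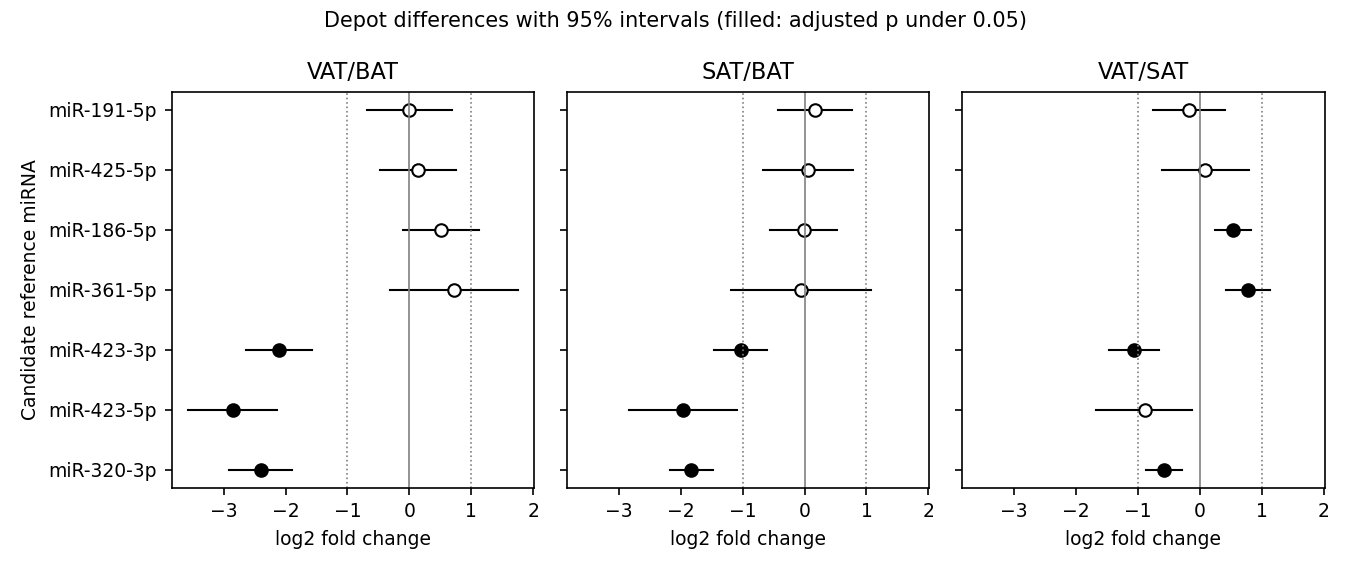
Log2 difference of each candidate in each pairwise comparison of depots (points) with limma's 95% interval (bars), filled points for an adjusted p under 0.05 and dotted lines at a 2-fold difference in each direction. The intervals of miR-191-5p and miR-425-5p lay between the dotted lines in all 3 comparisons, whereas those of miR-423-5p and miR-320-3p lay wholly beyond the lower one in both comparisons with BAT.

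Across the 3 depots, limma's moderated F test called both arms of miR-423 and miR-320-3p, 3 of the 7 candidates, beside 226 of the tested miRNAs (65.9%). miR-191-5p and miR-425-5p were the 2 that no pairwise comparison called, as for 99 of the tested miRNAs (28.9%). They were also the 2 whose interval lay within a 2-fold difference in all 3 comparisons, as for 13 of the tested miRNAs (3.79%). For miR-191-5p the VAT/BAT part of this is what the study chose it for.

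The spread over all 9 libraries ordered the candidates in much the same way. The SD of the log2 value was 0.28 for miR-191-5p, 0.29 for miR-425-5p and 0.32 for miR-186-5p, and these held places 11, 14 and 17 among the 343 tested miRNAs when ordered from the smallest SD. miR-361-5p had an SD of 0.56 (place 58), miR-423-3p 0.92 (place 133), miR-320-3p 1.09 (place 179) and miR-423-5p 1.31 (place 222). The median SD over all tested miRNAs was 1.05, and miR-320-3p and miR-423-5p lay above it. All 7 candidates were among the tested miRNAs with the higher mean. The median SD of that group was 0.9, and miR-423-3p lay above it as well. From its lowest to its highest library miR-191-5p ranged over 1.77-fold and miR-423-5p over 12-fold.

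Steady within a depot and steady between depots were different properties. Pooled within depots, miR-320-3p had the smallest SD of the 7, at 0.14, and only 1.46% of the tested miRNAs had a smaller one, but its depot means had an SD of 1.25. miR-423-3p was likewise tight within depots (0.18) and spread between them (1.05). miR-191-5p and miR-425-5p had larger SDs within depots, at 0.30 and 0.33, than between depot means, at 0.10 and 0.07. For miR-361-5p they were 0.48 and 0.43, beside medians over all tested miRNAs of 0.48 within depots and 0.97 between depot means. The order of the candidates by their SD within depots was thus not their order by the SD between depot means.

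**Figure D3:**
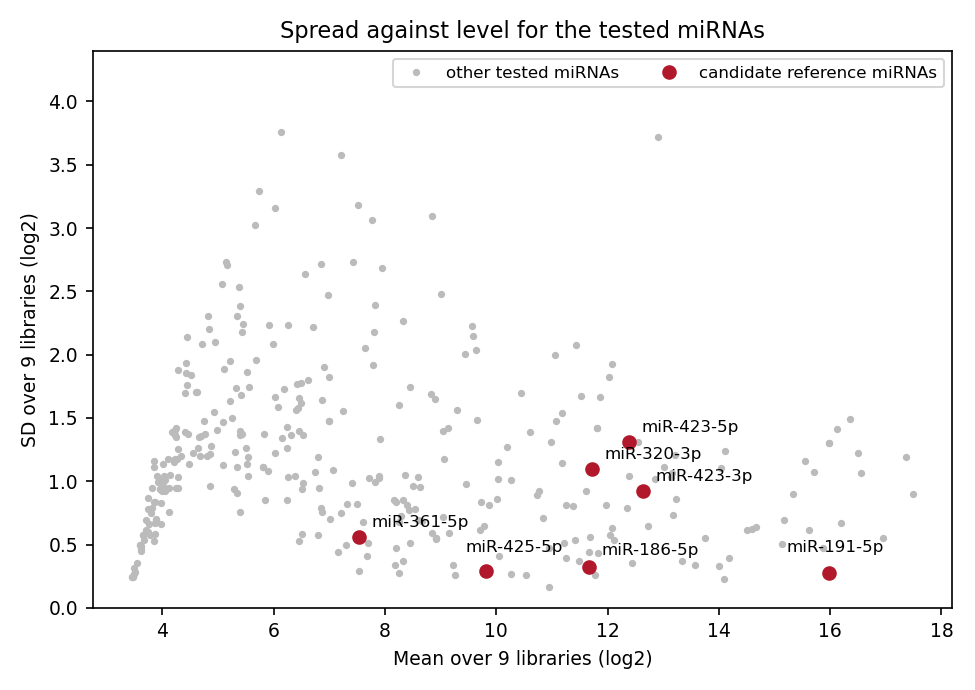
SD of the log2 value over the 9 libraries against its mean, for the 343 tested miRNAs, with the 7 candidates in red and the others in grey. miR-191-5p, miR-425-5p and miR-186-5p lay near the lower edge of the cloud at SDs of 0.28 to 0.32. miR-423-5p and miR-320-3p lay at 1.31 and 1.09, above the median of 1.05.

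The ratio between a pair of candidates is free of a single scale factor per library, though not of a normalization by rank, and the ratios fell into 2 sets. The SD of the log2 ratio over the 9 libraries was 0.24 for miR-191-5p and miR-425-5p, the smallest of the 21 pairs, followed by 0.30 for miR-186-5p and miR-361-5p. Among miR-423-3p, miR-423-5p and miR-320-3p it was 0.40 to 0.48, and among the other 4 candidates it was at most 0.60. Every pair that joined one of these sets to the other had an SD of 0.95 to 1.69, the largest being miR-423-5p with miR-361-5p. Averaged over its ratios to the other 6, miR-191-5p and miR-425-5p had the smallest SD (0.78 each) and miR-423-5p the largest (1.14), a measure that depends on which candidates are in the list.

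Scaling to a reference moves the difference of every miRNA by the reference's own difference, so the direction of the shifts below follows from the candidates' values by construction, and the counts show its size over the whole table. When each library was expressed relative to miR-191-5p in place of the values as deposited, the VAT/BAT comparison called 210 miRNAs, 125 higher and 85 lower, beside 135 and 92 as deposited. Relative to miR-425-5p the split was 116 higher and 94 lower, and relative to miR-186-5p 97 and 113. Relative to miR-423-5p it was 258 higher and 15 lower, relative to miR-320-3p 251 and 24, and relative to miR-423-3p 230 and 33. The median difference of all miRNAs went from 0.40 as deposited to 3.26 relative to miR-423-5p and to -0.33 relative to miR-361-5p. Relative to miR-361-5p only 165 miRNAs were called, 61 higher and 104 lower.

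Between the white depots the number of calls ranged from 2 to 197 with the reference. Where the deposited values gave 55 calls in the VAT/SAT comparison, 2 were made relative to miR-191-5p and 5 relative to miR-425-5p. At an unadjusted p under 0.05 limma counted 88 and 70, beside 123 as deposited. The VAT/SAT differences of these references were -0.17 and 0.09, and their SDs within depots 0.30 and 0.33. By construction, scaling carries that spread into every value, and fewer calls do not show that the white depots are alike. miR-221-3p differed by 1.18 (SE 0.10) as deposited and by 1.36 (SE 0.33) relative to miR-191-5p. Of the study's qPCR targets, only miR-455-3p had a smaller SE on that scale. The part of this spread in the counts was not tested. Relative to miR-423-3p, by contrast, 195 miRNAs were higher in VAT and 2 lower, and relative to miR-361-5p 3 were higher and 95 lower. In the SAT/BAT comparison the split was 65 higher and 71 lower relative to miR-191-5p, and 219 higher and 21 lower relative to miR-423-5p. The mean of all 7 candidates as a reference gave 187 VAT/BAT calls higher and 55 lower, 128 SAT/BAT calls higher and 48 lower, and 19 VAT/SAT calls higher and 5 lower.

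**Figure D4:**
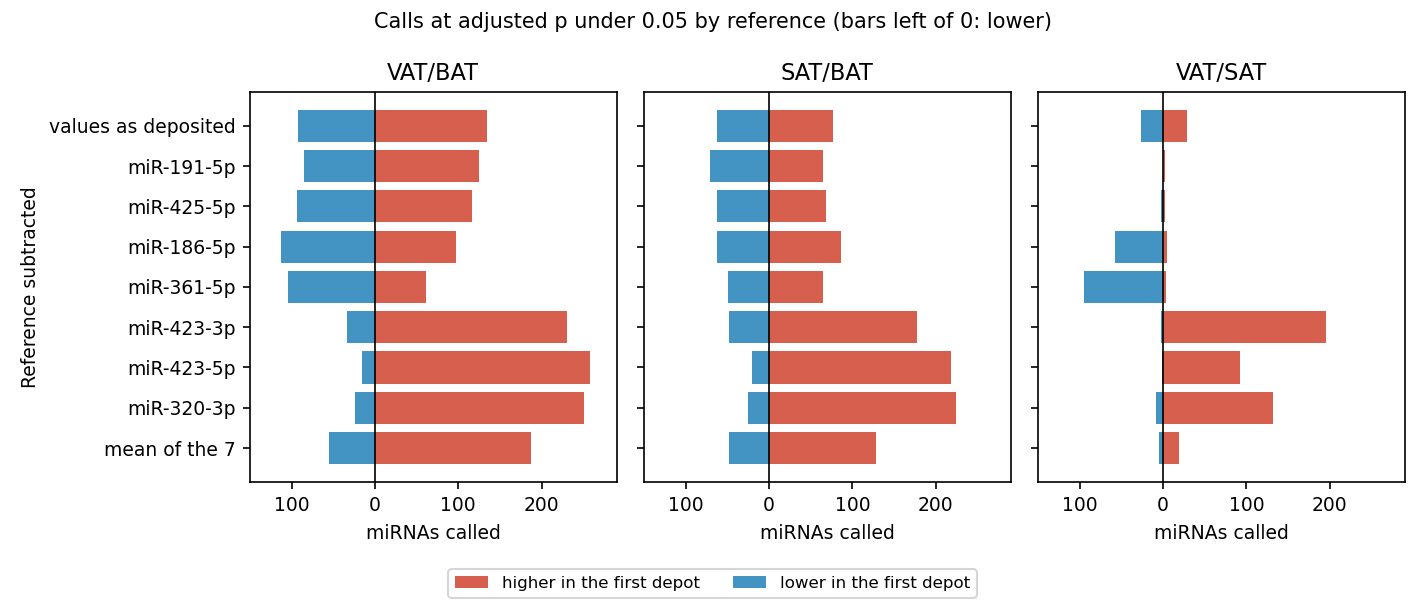
Number of miRNAs called at an adjusted p under 0.05 when each library is expressed relative to the reference on the vertical axis, with calls higher in the first-named depot to the right of 0 and calls lower in it to the left. With miR-423-3p, miR-423-5p and miR-320-3p as references most VAT/BAT calls were to the right, with 230, 258 and 251 higher and 33, 15 and 24 lower.

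The 11 qPCR targets of the study, which were normalised there to miR-191-5p, gave a view on single miRNAs. The study picked them with this sequencing in hand, so their direction is not independent evidence. In the paper, qPCR of VAT against BAT left out miR-125b-5p, which was compared between diets. It gave the direction of the sequencing for 7 targets and the opposite one for miR-221-3p, miR-708-5p and miR-30a-5p. The methods did not correlate significantly there, which the paper calls probably an effect of few miRNAs. Here those last targets were higher in VAT relative to miR-191-5p, by 2.97, 4.25 and 1.68. As deposited, 7 of the 11 were higher in VAT than in BAT, 3 were lower and 1 did not pass. Relative to miR-191-5p the counts were 7, 2 and 2. Relative to miR-423-5p or to miR-320-3p, 10 were higher and 1 was lower. miR-99b-5p was lower in VAT by the deposited values (-1.20, limma, adjusted p = 0.0161) and relative to miR-191-5p (-1.20, limma, adjusted p = 0.0136), and higher relative to miR-423-5p (1.65, limma, adjusted p = 0.0110) and miR-320-3p (1.20, limma, adjusted p = 0.00489). miR-30c-2-3p was at -0.71 as deposited (limma, adjusted p = 0.0451), at -0.71 relative to miR-191-5p (limma, adjusted p = 0.156), and at 2.15 relative to miR-423-5p (limma, adjusted p = 0.000684). miR-455-3p, which fell the most of the 11 in VAT, stayed lower with each of the 7 candidates as the reference, with differences from -5.42 to -1.84.

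Both miR-423 strands come from 1 hairpin, and the difference between them is free of a single scale factor per library, though not of a normalization by rank. The 5p strand was the higher in BAT and the 3p strand in the white depots. The 3p minus 5p difference was -0.25, -0.12 and -0.57 in the BAT libraries, 0.65, 0.89 and 0.31 in those of SAT, and 0.30, 0.37 and 0.65 in those of VAT, so that all 3 BAT libraries were below 0 and all 6 of SAT and VAT above it. The means were -0.32 ± 0.23, 0.61 ± 0.29 and 0.44 ± 0.19 (SD, n = 3 each). The depots differed in an exact permutation test over the 1680 ways to assign the libraries to depots (p = 0.0214, 0.0429 adjusted over the 2 such tests, one-sided in F, smallest possible p 0.00357). With the order of the libraries as a block, which the labels do not support as a pairing, the exact permutation p was 0.0833.

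miR-191-5p and miR-425-5p, whose hairpins lie 384 bases apart, had similar ratios in the 3 depots. miR-191-5p minus miR-425-5p was 6.37, 6.04 and 6.07 in the BAT libraries, 6.67, 6.02 and 6.15 in those of SAT, and 6.00, 6.21 and 5.84 in those of VAT, and the depots overlapped. In the order BAT, SAT and VAT, the mean difference was 6.16 ± 0.18, 6.28 ± 0.34 and 6.02 ± 0.19 (SD, n = 3 each), or 71.5-, 77.7- and 64.8-fold. No difference between depots was detected in the exact permutation test (p = 0.479).

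The other arms of the hairpins were mostly not measured at a level that could be tested. Of the 5, miR-191-3p, miR-186-3p and miR-320-5p were not tested, and miR-425-3p, near the lowest value in each depot, passed in none of the 3 comparisons. The remaining one, miR-361-3p, is shown for its contrast with the 5p arm.
miR-361-3p: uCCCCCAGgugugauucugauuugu
It lay at chrX:113074827-113074851 on the minus strand, and its values were 9.27, 9.39 and 8.73 in the BAT libraries, 7.73, 7.14 and 7.86 in those of SAT, and 8.21, 8.21 and 8.12 in those of VAT. Every BAT library was above those of the white depots, unlike for miR-361-5p. miR-361-3p was lower in VAT than in BAT by 0.95 on the log2 scale (difference -0.95, SE 0.26, limma, adjusted p = 0.0175) and lower in SAT than in BAT (difference -1.56, limma, adjusted p = 0.0120). As a description chosen after the values were seen, 5p minus 3p had means of -1.82 in BAT, -0.32 in SAT and -0.15 in VAT.

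**Figure D5:**
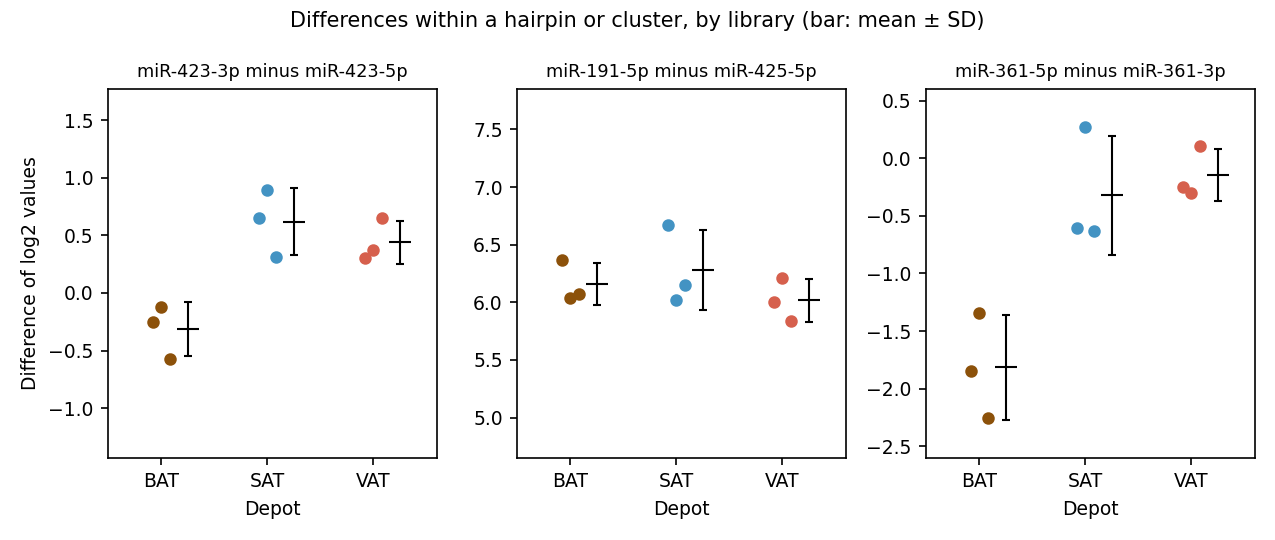
Difference of log2 values between miRNAs of a shared origin (panels) in each library, coloured by depot, with black bars for the depot mean ± SD over 3 libraries. The miR-423 difference was negative in the 3 BAT libraries and positive in the 6 others, the miR-191-5p to miR-425-5p difference overlapped between all depots at 5.84 to 6.67, and the miR-361 difference was lowest in BAT with a mean of -1.82.

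By the rule of the smallest distance over the 9 libraries after each miRNA's own mean was subtracted, the miRNA nearest in pattern among 336 others was miR-339-5p for miR-191-5p (distance 0.63) and miR-339-3p for miR-425-5p (0.39), which share a hairpin name. The levels of these miRNAs were all flat, which by itself keeps a distance small, and Pearson r was 0.66 and 0.89 for these pairs. The nearest to miR-320-3p was let-7b-3p (0.75), to miR-423-5p miR-671-3p (0.88) and to miR-423-3p let-7d-3p (0.98). Their Pearson r was 0.97, 0.98 and 0.95 in this order. miR-186-5p and miR-361-5p were nearest to miR-409-5p (0.54) and miR-20a-5p (0.96), whose mean levels of 3.51 and 3.86 were close to the lowest value in the table, so little can be read from them.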

How the data were processed

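Total RNA of the depots was made into Illumina small RNA libraries; the labels and the paper name different sequencers. The authors mapped reads to miRBase precursors (mm10), kept reads on mature miRNAs, shared multi-mapping reads in proportion, normalised to total usable reads and added 40 counts. The paper calls its values RPKM, but the deposited values are log2 values, with a lowest value of 10 before log2. Equal values at equal ranks resemble quantile normalization, which is not given in the sources used here. The paper gives an approximate number of mapped reads per sample but not the depth of each library, so no counting interval is given.

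Values were used as deposited. Of the 1251 miRNAs, the 343 that exceeded the lowest value in 3 or more of 9 libraries were fitted with limma 3.58.1 (lmFit, eBayes) in R 4.3.3, on the 6 libraries of each pair of depots, two-sided, without covariates, with Benjamini-Hochberg adjustment; the F test used all 9. Limma's 95% intervals are unadjusted. The study names an unmoderated test, run here as an alternative. Scaling to a reference subtracted its log2 value in each library before the fit. Permutation tests and SDs used Python 3.11.15, numpy 2.4.6 and scipy 1.17.1. The fit was tested on simulated data. Sequences came from RefSeq and host genes from GENCODE M21, both on GRCm38.

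The miRNAs named are the 7 candidates, the other arms of their hairpins, 10 other miRNAs used as references, 11 qPCR targets, cell type markers, the 5 flattest of the higher-mean tested miRNAs and the nearest in pattern to each candidate. Members and lists were chosen with earlier results of these data known.

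Alternatives were other offsets, no filter, the higher-mean tested miRNAs alone, a common median, quantile normalization, the mean of the candidates or each candidate as reference, 1 fit of all libraries, no moderation, replicate blocks, and each library left out. Leaving out BAT 20 and VAT 20 together was added after the data were seen.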

Additional observations from a re-analysis of the deposited data

How the results depend on the processing

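Limits come first from the values, which act much like ranks, so a steady level is a steady rank. They also come from having 3 libraries per depot, whose single depths are unknown. The calls of miR-423-3p, miR-423-5p and miR-320-3p in VAT/BAT held in every alternative run other than scaling to a single candidate, which moves the other candidates by construction, and apart from that scaling no called difference changed sign. In SAT/BAT, miR-423-5p lost its call without the filter (limma, adjusted p = 0.0732) and miR-423-3p relative to the mean of the 7 candidates (difference -0.37, limma, adjusted p = 0.285). The causes of the changes listed here were not tested, beyond what fewer samples, more miRNAs tested or scaling to the candidates bring by construction.

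Without the filter all 1251 miRNAs were tested. The counts were then 128 in VAT/BAT, 74 in SAT/BAT, 4 in VAT/SAT (103 at an unadjusted p under 0.05) and 143 in the F test. No candidate was called in VAT/SAT. Among the 171 tested miRNAs with the higher mean, the counts were 119 in VAT/BAT and 129 in the F test. The main fits called 227 and 226 of 343. Relative to the mean of the 7 candidates, all 7 were called in VAT/BAT and in the F test, and 1 in VAT/SAT. On that scale 0 had an interval within 1 in VAT/BAT or SAT/BAT, and 24 tested miRNAs were called in VAT/SAT. That mean contains the candidates that fell, so subtracting it raises the others by construction. For miR-191-5p the VAT/BAT difference went from 0.00 to 0.85. Relative to single candidates, the SAT/BAT count was 226 for miR-423-3p, 240 for miR-423-5p and 249 for miR-320-3p, and the VAT/SAT count was 2 for miR-191-5p, 5 for miR-425-5p, 197 for miR-423-3p, 93 for miR-423-5p, 98 for miR-361-5p and 140 for miR-320-3p. For VAT/SAT, quantile normalization called 2 candidates, the fit of all 9 libraries called 30 tested miRNAs and 1 candidate with 2 intervals within 1, and the unmoderated test called 31.

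Leaving out 1 library gave 187 to 236 calls in VAT/BAT, 112 to 142 in SAT/BAT, 0 to 49 in VAT/SAT and 197 to 236 in the F test. In VAT/SAT there were 0 without SAT 19 (104 at an unadjusted p under 0.05), 5 without VAT 20, 12 without SAT 20 and 23 without VAT 14. The candidates called were 3 to 4 in VAT/BAT and in the F test, 3 in SAT/BAT and 0 to 2 in VAT/SAT. Those with an interval within 1 were 2 to 4 in VAT/BAT (4 without BAT 20), 1 to 3 in SAT/BAT (1 without BAT 12, BAT 15 or SAT 19) and 2 to 4 in VAT/SAT (2 without VAT 17). The miR-423 arm difference ranged from 0.79 to 1.08.

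Whether the replicate numbers pair the libraries cannot be told from these data, since only 4 pairs share a number. Their deviations correlated at -0.139 to 0.27, the highest being BAT 20 with VAT 20. Pairs from different depots without a shared number reached from -0.48 (BAT 12 with VAT 20) to 0.358 (BAT 12 with VAT 14). With the title number as a replicate block in all 9 libraries, VAT/SAT gave 30 calls, 1 candidate and 2 intervals within 1, while the same block on the libraries of the 2 depots left 55 and 4. With the library order as a replicate block, VAT/SAT gave 0 calls in limma (105 at an unadjusted p under 0.05), 0 candidates and 1 interval within 1, SAT/BAT gave 1 interval within 1, and the miR-423 arm difference of 0.93 had an exact permutation p of 0.0833. Neither block moved any other count by more than 1.5 times.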

Other observations

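A further 10 miRNAs are used as references or belong to stable panels, and their median absolute VAT/BAT difference was 1.66, beside 1.62 over all tested miRNAs and 0.72 over the 7 candidates, without a test between the lists. Of the 10, 7 were higher in VAT than in BAT, 2 were lower and 1 did not pass, beside 39.4% and 26.8% of all tested miRNAs called higher and lower. miR-16-5p was 2.15 higher on the log2 scale (limma, adjusted p = 0.00282), miR-103-3p 1.71 higher (limma, adjusted p = 0.00239) and miR-26a-5p 2.25 higher (limma, adjusted p = 0.000922). miR-30c-5p was lower by the deposited values (difference -1.09, limma, adjusted p = 0.00395), as was miR-484 (-0.87, limma, adjusted p = 0.0178). miR-345-5p had a difference of -0.39 and did not pass (limma, adjusted p = 0.375). In the SAT/BAT comparison 6 were higher, 2 lower and 2 not past, beside 22.4% and 18.1% of all tested miRNAs called higher and lower. In VAT/SAT 2 were lower and 8 not past, beside 8.45% and 7.58%.

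Several abundant miRNAs outside the list were at least as flat as miR-191-5p. The 5 with the smallest SD over the 9 libraries among the tested miRNAs with the higher mean were miR-30a-3p (SD 0.17, mean level 10.94), miR-125b-5p (0.23, 14.09), miR-214-3p (0.26, 10.53), miR-140-3p (0.26, 11.77) and miR-339-5p (0.26, 9.26), beside 0.28 for miR-191-5p. They were picked for their small spread in these libraries, so their flatness is a description. miR-125b-5p was among the qPCR targets of the study, with a VAT/BAT difference of -0.07 as deposited and -0.07 relative to miR-191-5p, but 2.78 relative to miR-423-5p.

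Base composition moved with the depot differences over the whole table, a pattern looked at after the values were seen. Over the 288 tested miRNAs with a sequence, the share of G and C had a Spearman rho of -0.55 with the VAT/BAT difference, -0.43 with SAT/BAT and -0.34 with VAT/SAT, across miRNAs that share the same libraries and are not replicates. The 35 miRNAs under 40% had a median VAT/BAT difference of 1.71 and the 55 at 60% or more a median of -1.56. Of the candidates, miR-423-3p (65.2%) and miR-423-5p (56.5%) were at -2.10 and -2.85 in VAT/BAT, so the arm with more G and C fell less. miR-186-5p (40.9%) and miR-361-5p (45.5%) were at 0.51 and 0.72, and miR-191-5p (52.2%) and miR-425-5p (47.8%) at 0.00 and 0.14. miR-320-3p, which also fell, had no sequence matched by name. The part of base composition in the candidates' differences was not tested.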
